A study of Mus musculus with 3 samples.

Results

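Testis cells driven towards a Leydig fate in culture were compared between day 14 and day 7, that is, after 10 and after 3 days in differentiation medium. All cells that the merged count table labels as day 14 were set against all that it labels as day 7. These were 973 and 2171 cells, or 3144 of the 6124 cells that the table holds for days 4, 7 and 14. The cells came from testes of C57BL/6 males aged 8 to 12 weeks and had been sorted as SCA1+/cKIT-, that is, carrying the stromal progenitor protein SCA1 and lacking the receptor cKIT. Both groups were plated on Matrigel at 100000 cells per well, recovered for 18 h in medium with 10% FBS and expanded for 3 days with PDGFAA, PDGFBB and FGF2 (10 ng/ml each) and 0.5 µM SAG, an agonist of the hedgehog receptor component Smoothened. Both were then kept in differentiation medium, which holds the same factors together with 5 mM LiCl2, an activator of Wnt signalling, and 10 µM DAPT, an inhibitor of the γ-secretase that activates Notch. No culture without these agents was compared here.

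Leydig cells are the testosterone-producing cells between the seminiferous tubules. They bring cholesterol into the mitochondrion with the transfer protein StAR, cut its side chain with CYP11A1, and pass the product through HSD3B1, CYP17A1 and HSD17B3 to testosterone, under the control of luteinizing hormone and its receptor. Their stem and progenitor cells are spindle-shaped stromal cells, and stromal cells grown on a plate commonly take on a contractile, matrix-depositing myofibroblast state.

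Each day was 1 Drop-seq library, in which single cells are captured in droplets with barcoded beads and the 3' ends of their mRNAs are counted as unique molecular identifiers (UMIs). Day and library can therefore not be told apart, cells of 1 library are not replicates, and no test between days was made. A level is the sum of a gene's UMIs over all cells of the day per 1000000 UMIs of that day (CPM). Where a pair of levels stands in brackets, day 7 comes first. In such a sum, a higher level through more cells and one through more mRNA per cell cannot be told apart without the share of cells with a UMI. Intervals are exact at 95%, Poisson for levels, conditional binomial for ratios and Clopper-Pearson for shares, and they cover counting error only. The day 7 library held 11627440 UMIs and the day 14 library 5324400, with a median of 3285 and 3272 UMIs per cell. No barcode was shared between the libraries. Mitochondrial genes took 1.46% of UMIs on day 7 and 2.64% on day 14, and the study's filter on cells had removed 9.54% of the deposited barcodes of day 7 and 25.2% of those of day 14. Ly6a, which encodes the SCA1 used for sorting, stood at 64.2 CPM on day 7 against 358 CPM on day 14.

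Among the 2216 genes with at least 100 CPM on either day, 296 (13.4%) were at least 2-fold higher on day 14 and 347 (15.7%) were at least 2-fold lower. At 4-fold the counts were 108 higher (4.87%) and 133 lower (6%). The 296 higher genes took 6.17% of all UMIs on day 7 and 21.1% on day 14, and the 347 lower genes took 16.6% and 4.58%. The median log2 ratio of the 2216 genes was -0.16, with quartiles at -0.65 and 0.42, so that most genes sat slightly below their day 7 share. With this median set to 0, 379 genes were at least 2-fold higher and 284 lower, and the part of the higher among all such genes moved from 46.0% to 57.2%. Ratios below are those without that shift. The genes nearest the 2-fold line were Timp2 (653 and 1306 CPM on days 7 and 14), just inside, and mt-Nd2 (1149 and 2289 CPM), just outside. Rap2b (106 and 52.8 CPM) and Fhl2 (906 and 454 CPM) stood on either side of the line for lower genes.

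**Figure D1:**
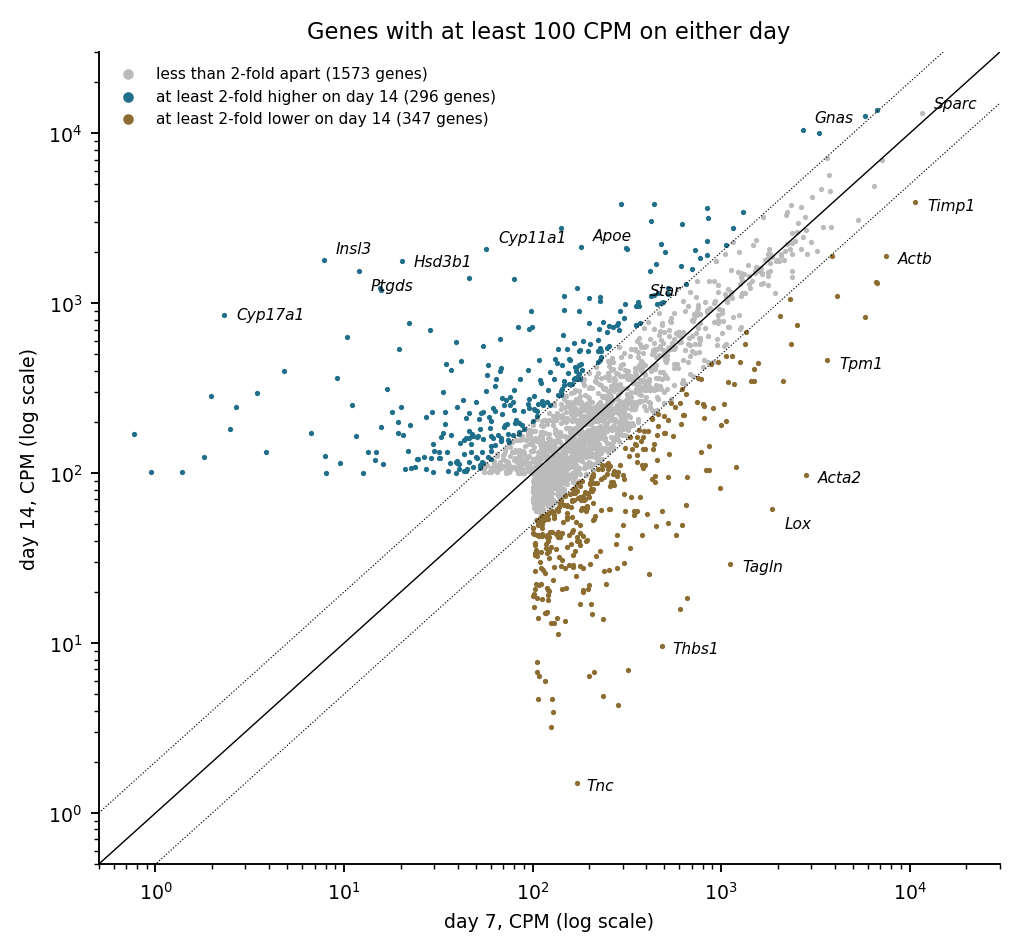
Level of each gene on day 7 (horizontal axis) and on day 14 (vertical axis) in CPM, both on log scales. Each point is 1 of the 2216 genes with at least 100 CPM on either day, and the lines mark equal levels and 2-fold differences. Insl3, Cyp17a1, Hsd3b1 and Cyp11a1 stand far above the lines, and Acta2, Lox, Thbs1 and Tnc far below them.

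The promoters of 4 genes with far lower levels on day 14 are shown here because short motifs of known transcription factors stand in them. TEAD factors, the DNA-binding partners of the mechanosensitive coactivator YAP, bind the letters GGAATG. The CArG box is the binding site of serum response factor at muscle and cytoskeletal genes, and the cell cycle homology region (CHR), TTTGAA, is bound by the complex that switches mitotic genes with the cell cycle. Each line holds the 250 bases before the RefSeq transcription start (GRCm38.p6), read 5' to 3' on the gene's strand, with the motif in capitals.
Ankrd1, 2 TEAD motifs (chr19:36119845-36120094, minus strand): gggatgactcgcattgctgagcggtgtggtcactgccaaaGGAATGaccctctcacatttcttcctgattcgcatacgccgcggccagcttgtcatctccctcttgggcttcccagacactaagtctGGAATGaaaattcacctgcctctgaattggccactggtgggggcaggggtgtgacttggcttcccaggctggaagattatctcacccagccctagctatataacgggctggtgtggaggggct
Acta2, 1 TEAD motif (chr19:34255374-34255623, minus strand): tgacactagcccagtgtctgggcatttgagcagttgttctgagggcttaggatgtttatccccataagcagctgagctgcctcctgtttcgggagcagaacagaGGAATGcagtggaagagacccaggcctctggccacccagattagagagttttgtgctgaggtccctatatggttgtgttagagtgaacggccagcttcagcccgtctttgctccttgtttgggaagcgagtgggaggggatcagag
Cnn2, 1 CArG box (chr10:79988350-79988599, plus strand): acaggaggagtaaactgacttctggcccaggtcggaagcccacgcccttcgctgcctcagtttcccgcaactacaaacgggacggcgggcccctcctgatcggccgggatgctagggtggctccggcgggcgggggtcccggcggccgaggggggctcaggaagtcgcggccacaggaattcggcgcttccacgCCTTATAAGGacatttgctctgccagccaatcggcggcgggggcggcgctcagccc
Cdk1, 2 CHR motifs (chr10:69352913-69353162, minus strand): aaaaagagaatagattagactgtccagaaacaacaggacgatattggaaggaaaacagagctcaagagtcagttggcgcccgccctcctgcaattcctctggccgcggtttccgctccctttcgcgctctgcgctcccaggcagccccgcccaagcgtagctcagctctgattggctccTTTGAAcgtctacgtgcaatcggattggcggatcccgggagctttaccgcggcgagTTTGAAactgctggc
The motifs of Ankrd1 begin 210 and 123 bases before its start, that of Acta2 146 bases, that of Cnn2 56 bases, and those of Cdk1 71 and 15 bases before the start. Only exact matches to the named motif are in capitals, and near matches are not marked. A match of letters is a description and does not show that a factor binds there.

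The largest ratios between the days included those of genes that define the Leydig cell. Insl3, which encodes the peptide hormone of Leydig cells (chromosome 8 of GRCm38, from 71689214 to 71690575), stood at 7.83 CPM on day 7 (interval 6.301 to 9.61) and at 1797 CPM on day 14 (1761 to 1833), a ratio of 229.6 (187 to 285). A UMI of it was seen in 1.93% of cells on day 7 and 71.5% on day 14. Cyp17a1, whose enzyme turns progestins into androgens (chromosome 19, from 46667165 to 46673172), had the greatest ratio of all tested genes with UMIs on both days, at 2.32 CPM on day 7 against 856 CPM on day 14, a ratio of 369 (253 to 560.3). A UMI of it was seen in 24.9% of day 14 cells, fewer than for Insl3, and 13 cells held at least 50% of them. Hsd3b1, the enzyme that makes progesterone from pregnenolone, stood at 20.2 CPM on day 7 against 1769.6 CPM on day 14 (87.6-fold, 76.9 to 100.1). Cyp11a1, which makes pregnenolone from cholesterol, stood at 56.8 CPM on day 7 against 2089 CPM on day 14 (36.8-fold, 34.02 to 39.9). UMIs of Hsd3b1 were seen in 1.24% of day 7 and 50.8% of day 14 cells, and those of Cyp11a1 in 2.21% and 57.1%.

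Of the 12 steroid synthesis genes, 9 were at least 2-fold higher on day 14 and none was 2-fold lower, with a median log2 ratio of 2.92. Over all 12656 genes with at least 20 UMIs, the basis for this and every following list, 1571 (12.4%) were at least 2-fold higher and 2106 (16.6%) lower, with a median of -0.13. Star, the cholesterol carrier of the mitochondrial outer membrane, differed least among the main steps, at 362 CPM on day 7 against 1012 CPM on day 14 (2.799-fold, 2.69 to 2.91), and was already detected in 46.5% of day 7 cells against 69.8% of day 14 cells. The electron donors of CYP11A1, ferredoxin (Fdx1, 97.6 and 895 CPM) and ferredoxin reductase (Fdxr, 33.6 and 301 CPM), were 9.17-fold and 8.94-fold higher. Cyb5a, whose cytochrome b5 aids the lyase step of CYP17A1, was 2.72-fold higher (249 and 677 CPM). Por, the reductase that feeds CYP17A1 itself, differed little (23.05 and 27.6 CPM). The last step to testosterone stayed scarce. Hsd17b3 had 13 UMIs on day 7 and 69 on day 14 (1.12 and 12.96 CPM, 11.6-fold, 6.35 to 22.9). Srd5a1, the reductase that marks immature Leydig cells, had a ratio of 1.11 with an interval of 0.789 to 1.55, and Tspo, a protein of the outer mitochondrial membrane, stood at 463 CPM on day 7 against 273 CPM on day 14. Hsd3b6, a near-identical relative of Hsd3b1 with which it can share reads, had 60 UMIs on day 14, of which 43 lay in 1 cell, so its level is uncertain.

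10 of the 11 Leydig hormone and receptor genes with at least 20 UMIs were at least 2-fold higher on day 14, with a median of 4.36 and summed levels of 188 CPM on day 7 against 4844 CPM on day 14. The exception, Pdgfra, the PDGF receptor of Leydig progenitors, stood at 65.3 CPM on day 7 against 108 CPM on day 14, and Sult1e1 was below the minimum with 10 UMIs, all on day 14. Among the receptors, Lhcgr, the receptor for luteinizing hormone, stood at 0.946 CPM on day 7 against 39.1 CPM on day 14, with a UMI in 0.322% and 8.74% of cells. Prlr, the prolactin receptor, was far more abundant on day 14 (1.98 and 283 CPM, 143-fold) and was seen in 39.98% of those cells. Oxtr, the oxytocin receptor, stood at 0.774 CPM on day 7 against 52.6 CPM on day 14. Among secreted products, Ptgds, the prostaglandin D2 synthase of adult Leydig cells, was 129-fold higher (12.04 and 1552 CPM), with at least 50% of its day 14 UMIs in 25 cells, and Agt, angiotensinogen, was 27.5-fold higher (19.5 and 536 CPM). Hsd11b1, which activates glucocorticoids within cells, was 4.401-fold higher (17.03 and 74.9 CPM).

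In single cells the enzymes were spread unevenly. With the UMIs of Cyp11a1, Cyp17a1 and Hsd3b1 added, 2117 of the 2171 day 7 cells (97.5%) held none, 27 held 1 to 4 and 27 held at least 5. On day 14, 312 cells (32.1%) held none, 267 (27.4%) held 1 to 4 and 394 (40.5%, interval 37.4 to 43.7%) held at least 5. The median depths of the 3 day 14 ranges were 2025, 3833 and 4965 UMIs per cell, so the ranges differ in depth too. The day 14 cells without an enzyme UMI were also set beside the day 7 cells without one. Their Insl3 stood at 424 CPM against 1.77 CPM, their Apoe at 2654 against 174 CPM, their Gpx3 at 913 against 93.5 CPM and their Acta2 at 222 against 2894 CPM. The 27 day 7 cells with at least 5 enzyme UMIs had a median of 2437 UMIs per cell, against 4965 in the day 14 cells of that range, so the same limit asks for a larger share of UMIs on day 7. These cells had Star at 2183 against 1345 CPM and Insl3 at 496 against 2727 CPM.

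Free RNA in the droplets can place a UMI in a cell that does not express the gene. In the day 7 library, 2062 cells had at least 1.12% of their UMIs in contractile genes (median depth 3386 UMIs). They showed Cyp11a1 in 0.776%, Hsd3b1 in 0.339%, Cyp17a1 in 0.09699% and Insl3 in 0.824% of cells. Being of another library, they do not measure free RNA on day 14. The 135 day 14 cells of that range (2865 UMIs) showed Cyp11a1 in 26.7%, Hsd3b1 in 15.6%, Cyp17a1 in 10.4% and Insl3 in 32.6%, against 62.1%, 56.4%, 27.2% and 77.8% in the other 838 cells (3377 UMIs). All 4 day 14 shares were higher in the other 838 cells, which were deeper and were parted from the 135 by contractile genes. The part that free RNA had in the 135 cells was not tested. When every cell was thinned to 1500 UMIs, which left out 429 shallower cells of day 7 and 179 of day 14, the share with Insl3 was 1.15% on day 7 and 62.97% on day 14, that with Cyp11a1 1.72% and 45.7%, that with Hsd3b1 1.03% and 43.7%, and that with Cyp17a1 0.172% and 16.5%.

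**Figure D2:**
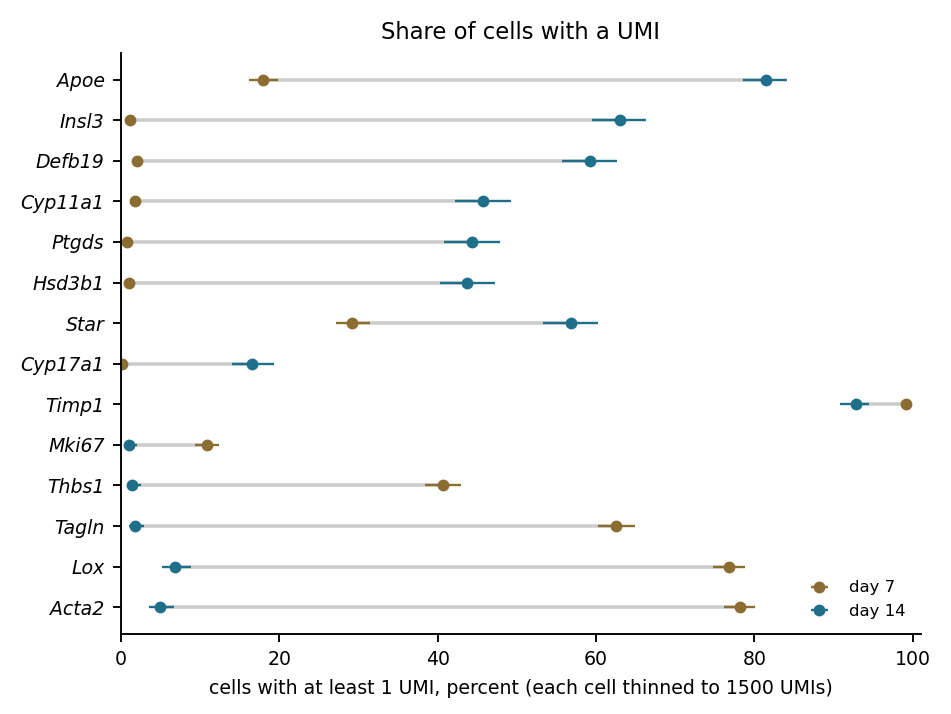
Share of cells with at least 1 UMI of each of 14 genes on day 7 and day 14 (horizontal axis, percent), after each cell was thinned to 1500 UMIs. Points are shares and bars their exact Clopper-Pearson 95% intervals, which cover counting error only. Insl3 goes from 1.15% of day 7 cells to 63.0% of day 14 cells, while Acta2 goes from 78.1% to 4.91%.

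The gonadal transcription factors did not move as a group. Of 17 with at least 20 UMIs, 4 were at least 2-fold higher, 3 lower, and the median log2 ratio was -0.16. The higher ones were Nr5a1, which encodes SF1, the master regulator of steroidogenic cells (21.8 CPM on day 7 against 136 CPM on day 14), the zinc finger factors Gata6 (3.61 and 22.9 CPM) and Gata4 (19.95 and 40.4 CPM), and Tcf4 (174 and 375 CPM). The lower ones were Nr3c1, the glucocorticoid receptor (184 and 71.7 CPM), Zfpm2, the GATA partner FOG2 (19.8 and 6.01 CPM), and Nr2f1 (8.43 and 3.19 CPM). Nr2f2, or COUP-TFII, a factor of Leydig stem cells, stood at 141 CPM on day 7 against 72.3 CPM on day 14 and Tcf21 at 21.6 CPM on day 7 against 14.1 CPM on day 14. Nr0b1 and Dmrt1 had no UMI on either day. Of adrenal cortex genes, Mrap, the accessory protein of the ACTH receptor, was 8.89-fold higher (19.4 and 173 CPM) and Akr1b7 stood at 0.516 CPM on day 7 against 3.94 CPM on day 14, whereas Cyp21a1, which defines the adrenal pathway, had 0 UMIs on day 7 and 3 on day 14, and Cyp11b1 had 8 and 4.

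Cholesterol, the raw material of steroids, can be made, taken up or released from stores. All but 1 of the 20 synthesis genes had a ratio above 1, but only 7 reached 2-fold, and the median log2 ratio was 0.64. Those 7 were Tm7sf2, Mvd, Ebp, Dhcr7, Fdps, Lss and Hsd17b7, led by the sterol reductase Tm7sf2 (42.7 CPM on day 7 against 269 CPM on day 14). Idi1, the exception, stood at 32.4 CPM on day 7 against 22.3 CPM on day 14. Among 15 uptake and transport genes, 6 were higher and 1 lower. Apoe, the apolipoprotein that carries cholesterol between cells, was 11.9-fold higher (181 and 2154 CPM) and was seen in 29.4% and 91.7% of cells. Gramd1b, which carries sterol from the plasma membrane to the endoplasmic reticulum (16.9 and 313 CPM), Abca1, a cholesterol exporter (67.3 and 612 CPM), and Scarb1, the receptor for high-density lipoprotein (52.5 and 183 CPM), were also higher. The exporter Abcg1 was the lower one (26.5 and 3.38 CPM).

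Lysosomal genes were higher on day 14 nearly throughout. Of 30, 19 were at least 2-fold higher and none 2-fold lower, with a median of 1.14 and summed levels of 10421 CPM on day 7 against 22543 CPM on day 14. The proteases cathepsin F (Ctsf, 29.2 and 228 CPM), legumain (Lgmn, 95.9 and 709 CPM) and cathepsin H (Ctsh, 147 and 912 CPM) led the list, followed by the glycosidases Hexa (229 and 1029.6 CPM) and Gusb (108 and 464 CPM). Lipa, which frees cholesterol from its esters, was the single member with a ratio below 1 (66.4 and 57.5 CPM). The proton pump of the lysosome, the V-ATPase, had 1 of 12 subunit genes past 2-fold (Atp6ap1, 170.2 and 415 CPM) and a median of 0.19. In single cells the lysosomal genes took a median of 1.01% of a cell's UMIs on day 7 and 2.24% on day 14, and 99.1% of day 14 cells lay above the day 7 median.

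Fatty acid oxidation genes were higher in 8 of 16 cases and 2-fold lower in none (median 1.03). Fabp3, a fatty acid carrier (22.02 and 769 CPM), was 34.9-fold higher, and the thiolase Acaa2 stood at 54.5 CPM on day 7 against 563 CPM on day 14. Oxidative phosphorylation genes differed less, with 4 of 32 nuclear genes past 2-fold (median 0.28) and 1 of 8 mitochondrial ones (median 0.69). In glycolysis 3 genes were higher and 2 lower of 17. The lactate dehydrogenase subunits stood on opposite sides, with Ldhb at 57.97 CPM on day 7 against 431 CPM on day 14 and Ldha at 646 CPM on day 7 against 335 CPM on day 14.

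Glutathione and peroxide defence genes were higher in 12 of 33 cases and lower in 1. The α-class glutathione transferases Gsta2 (15.7 and 1196 CPM) and Gsta4 (10.3 and 629 CPM) were 75.98-fold and 60.9-fold higher, and the µ-class Gstm1 (848 and 3186 CPM) and Gstm2 (482 and 2231 CPM) were 3.76-fold and 4.63-fold higher. These families hold close copies that can share reads, so the split among members is uncertain. Sepp1, the selenium carrier selenoprotein P (141 and 2767 CPM), and Gpx3, a secreted glutathione peroxidase (98.8 and 720.1 CPM), were also higher, and the thioredoxin reductase Txnrd1 was lower (253 and 106 CPM). A total of 7 of 11 metallothionein and iron genes were higher and 2 lower. Both metallothioneins, which bind zinc and copper, stood among the higher ones, Mt1 at 842 CPM on day 7 against 3644 CPM on day 14 and Mt2 at 146 CPM on day 7 against 1107 CPM on day 14, together with the ferroxidase ceruloplasmin (Cp, 94.3 and 404 CPM) and the siderophore carrier Lcn2 (1.81 and 124 CPM). The iron exporter Slc40a1 was lower (9.12 and 3.57 CPM).

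Retinoid genes lay on both sides, with 7 of 14 higher and 3 lower. Higher were the dehydrogenases Aldh1a1 (438 and 3839 CPM), Aldh1a7 (9.202 and 363 CPM) and Adh1 (45.8 and 1409 CPM), the retinal reductase Dhrs3 (7.998 and 100.1 CPM) and Cyp26b1, which degrades retinoic acid (6.71 and 171 CPM). Lower were the retinoic acid synthase Aldh1a3 (185 and 20.1 CPM) and the retinoic acid binding proteins Crabp1 (727 UMIs on day 7 and 1 on day 14) and Crabp2 (97 and 1). The prostaglandin genes were also split, 3 higher and 4 lower of 9, with Ptgds on one side and the prostacyclin synthase Ptgis (372 and 72.9 CPM) and the inducible cyclooxygenase Ptgs2 (57.4 and 26.1 CPM) on the other.

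Every one of the 30 contractile and actin cytoskeleton genes was at least 2-fold lower on day 14, a share of 100% of the list beside 16.6% of all genes. By log2 ratios with the pseudocount of 1 CPM, the number was 28 of 30 with equal weight per cell, with thinned cells or with the median gene set to no change. The median log2 ratio was -2.70, and the summed level was 37832 CPM on day 7 against 7569 CPM on day 14. Acta2, α-smooth muscle actin, the usual marker of myofibroblasts and myoid cells, stood at 2831 CPM on day 7 (2800.2 to 2861) and 97.1 CPM on day 14 (88.9 to 106), a ratio of 0.0343 (0.0314 to 0.0374), and its promoter is printed above. It was detected in 82.2% of day 7 and 9.25% of day 14 cells. In the 394 day 14 cells with at least 5 enzyme UMIs (median depth 4965 UMIs) that share was 3.55%. Tagln, the actin-bundling transgelin, stood at 1117 CPM on day 7 against 29.1 CPM on day 14, the calponin Cnn2 at 619 CPM on day 7 against 49.4 CPM on day 14, tropomyosin Tpm1 at 3657 CPM on day 7 against 461 CPM on day 14 and α-actinin Actn1 at 484 CPM on day 7 against 59.9 CPM on day 14. Cnn1, the calponin of smooth muscle, had 309 UMIs in 159 cells on day 7 and none on day 14, at least a 47.2-fold difference when 3 UMIs over the day are taken as the limit of a count of 0. The non-muscle actin Actb stood at 7496 CPM on day 7 against 1887 CPM on day 14, and the smallest difference was that of the myosin light chain Myl6 (1353 and 674 CPM).

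**Figure D3:**
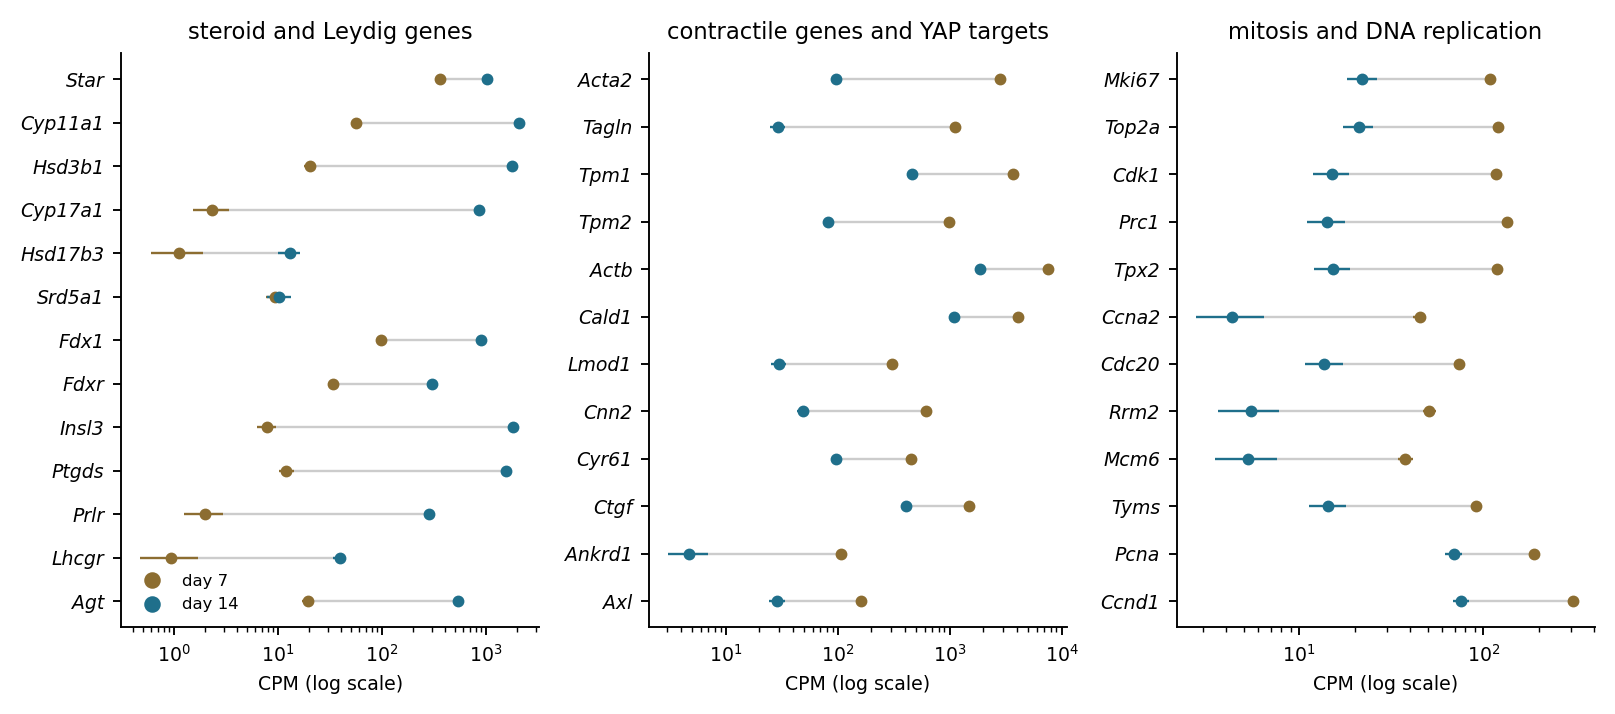
Levels in CPM on a log scale (horizontal axis) on day 7 and day 14 for steroid and Leydig genes, for contractile genes with YAP targets, and for mitosis and DNA replication genes, with exact Poisson 95% intervals as bars. Day 14 lies to the right in the first panel except for Srd5a1, whose intervals overlap, and to the left in the other panels.

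Within day 14 the contractile genes took a median of 0.6803% of a cell's UMIs, against 3.58% on day 7. Of the day 14 cells, 86.1% lay below 1.12%, the 5th percentile of day 7, and 0.308% lay above the day 7 median. The line is set by the contractile genes themselves, so their levels on either side of it are fixed by the split. This is a range and not a cell type, as 54 day 7 cells and 75 day 14 cells lie within 10% of the 1.12% line. In the 135 day 14 cells at or above the line Apoe stood at 1762 CPM, against 157 CPM in the day 7 cells of that range. In the 109 day 7 cells below the line (median depth 2174 UMIs) Cyp11a1 stood at 1691 CPM with a UMI in 29.4% of cells, against 2341 CPM and 62.1% in the 838 day 14 cells below it. Insl3 stood at 191 against 1997 CPM in the same cells.

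**Figure D4:**
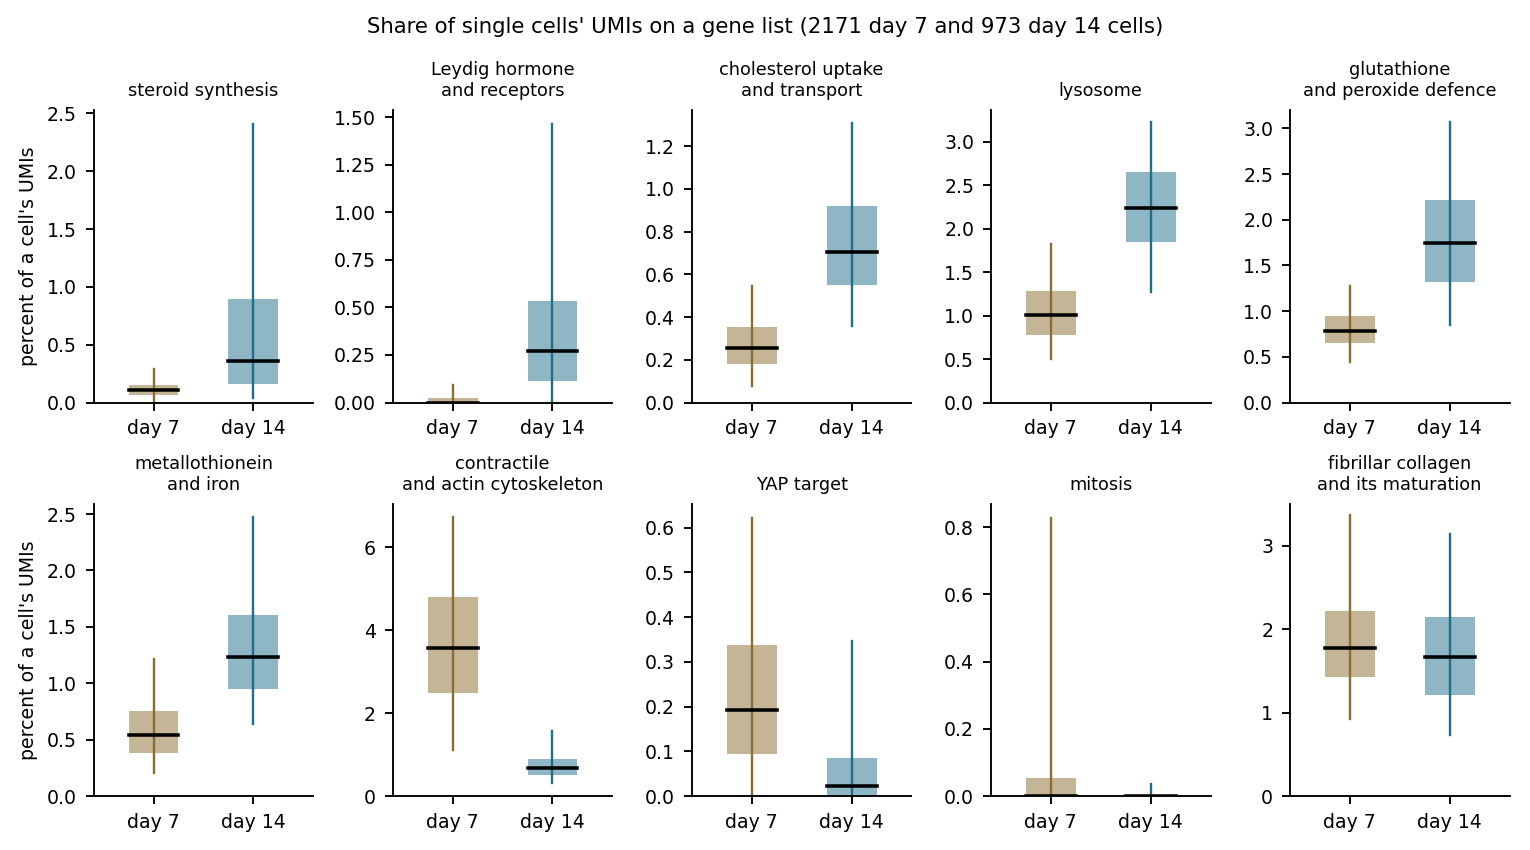
Share of a cell's UMIs that falls on each of 10 gene lists (vertical axis, percent) in day 7 and day 14 cells (horizontal axis). Boxes span the quartiles, lines the 5th to 95th percentile, and black marks the median, which for the contractile genes is 3.58% on day 7 and 0.680% on day 14 and for the lysosomal genes 1.01% and 2.24%.

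10 of the 11 genes known as targets of YAP, which enters the nucleus of stretched or spread cells, were at least 2-fold lower on day 14 and none was higher (median log2 ratio -1.65). Ankrd1, whose promoter above holds 2 TEAD motifs, stood at 106 CPM on day 7 against 4.695 CPM on day 14. The matricellular proteins Ctgf (1489 and 412 CPM) and Cyr61 (447 and 96.5 CPM), the receptor kinase Axl (163 and 28.9 CPM) and Crim1 (69.3 and 8.45 CPM) were lower as well, and Lats2, a kinase that restrains YAP, stood between the limits (26.9 and 21.8 CPM). Among the 26 contractile genes with a RefSeq promoter, 10 held GGAATG on either strand, namely Acta2, Actn4, Cald1, Flna, Lmod1, Mylk, Palld, Tagln2, Tpm1 and Vcl, where 14.4% of all 27025 promoters held it. An exact CArG box (CC, a run of only A or T, and GG) stood in 5 of the 26 (Actg1, Cnn2, Myl6, Myl9 and Vcl), beside 1.62% of all promoters. Near matches were not counted, among them ccctatatgg and ccttgtttgg in the Acta2 promoter above.

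Extracellular matrix genes split by kind. Of 21 genes for fibrillar collagens and their maturation, 10 were at least 2-fold lower and 2 higher, yet the summed level differed little (18790.1 CPM on day 7 against 16933 CPM on day 14). Lox, the oxidase that crosslinks collagen and elastin, stood at 1869 CPM on day 7 against 61.4 CPM on day 14, Col8a1 at 237 CPM on day 7 against 4.88 CPM on day 14, Col5a2 at 1034 CPM on day 7 against 255 CPM on day 14 and Col1a1 at 1148 CPM on day 7 against 486 CPM on day 14. Col3a1, the collagen of loose stroma, had a ratio above 1 (3665 and 7202 CPM, ratio 1.96), and Pcolce, which aids collagen processing, was 2.38-fold higher (773 and 1841 CPM). Type VI collagen chains diverged, with Col6a1 (200.3 and 764 CPM) and Col6a2 (111 and 339 CPM) higher and Col6a3 (256 and 61.8 CPM) lower, in a list of 16 with 2 higher and 4 lower. Of 14 elastic fibre genes 6 were lower, among them Ltbp2 (321 and 6.95 CPM), Fbln2 (1194 and 109 CPM) and the fibrillin Fbn1 (812 and 211 CPM), and 1 was higher, Efemp1 (68.2 and 415 CPM). Of 10 small leucine-rich proteoglycan genes 5 were higher, 1 was lower and 4 lay between with ratios below 1, and their summed level was 3041 CPM on day 7 against 2797 CPM on day 14, with decorin (Dcn) at 368 CPM on day 7 against 964 CPM on day 14 and asporin (Aspn) at 6.88 CPM on day 7 against 98.6 CPM on day 14.

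Of the 13 matricellular genes 8 were lower and 2 higher (median log2 ratio -1.84). Tnc, tenascin-C, had the smallest ratio among the tested genes with UMIs on both days (173 CPM on day 7 against 1.503 CPM on day 14, ratio 0.00871, 0.00375 to 0.0172). Thrombospondin 1 (Thbs1) stood at 488 CPM on day 7 against 9.58 CPM on day 14 and was seen in 58.9% and 2.88% of cells, osteopontin (Spp1) at 6700.01 CPM on day 7 against 1312 CPM on day 14 and periostin (Postn) at 449.6 CPM on day 7 against 48.8 CPM on day 14. Smoc2 was higher (173 and 1226 CPM), and Sparc, among the most counted genes of both libraries, stood at 11681 CPM on day 7 against 13148 CPM on day 14. Among proteases and their inhibitors 9 of 23 genes were higher and 6 lower. The serpin genes Serpina3n (80.2 and 1392 CPM), Serpina3c (3.44 and 297 CPM), Serpina3m (0.774 and 170.2 CPM) and Serpina5 (2.67 and 246 CPM) were higher. The Serpina3 genes are a cluster of close copies, so the split among them is uncertain. Of the metalloprotease inhibitors Timp1 stood at 10706 CPM on day 7 against 3918 CPM on day 14 and Timp3 at 905 CPM on day 7 against 242 CPM on day 14, while the gelatinase Mmp2 (166 and 584 CPM) and the protease Htra1 (618 and 2937 CPM) were higher.

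Cell cycle genes were lower on day 14. All 20 mitosis genes were at least 2-fold lower (median log2 ratio -2.38), and so were 19 of 20 DNA replication genes (median -1.75). The cells with at least 2 mitosis UMIs were also left out, with members counted by log2 ratios with the pseudocount of 1 CPM. By that measure 9 of 20 mitosis genes (median -0.77) and 8 of 20 DNA replication genes (median -0.82) were at least 2-fold lower. In all cells the highest mitosis log2 ratio by that measure was -1.45. The cells left out were chosen by the mitosis genes, so a smaller difference in these genes is partly set by the choice. Mki67, the proliferation antigen, stood at 109 CPM on day 7 against 21.97 CPM on day 14, the mitotic kinase Cdk1 at 117 CPM on day 7 against 15.03 CPM on day 14, the spindle protein Prc1 at 135 CPM on day 7 against 14.1 CPM on day 14 and the ribonucleotide reductase subunit Rrm2 at 50.9 CPM on day 7 against 5.45 CPM on day 14. The replication clamp Pcna stood at 188 CPM on day 7 against 69.1 CPM on day 14, and Fen1 lay between the limits (16.6 and 9.77 CPM). Of the day 7 cells 638 (29.4%) had at least 2 mitosis UMIs, against 40 (4.11%) of the day 14 cells at a nearly equal median depth. A total of 8 of the 17 mitosis genes with a promoter held TTTGAA (Ccnb2, Cdc20, Cdk1, Kif11, Mki67, Prc1, Top2a and Ube2c), beside 18.3% of all promoters. Cell cycle regulators were mixed. Cyclin D1 (Ccnd1, 307 and 75.7 CPM) and the inhibitor Cdkn2b (279 and 38.5 CPM) were lower, the inhibitor Cdkn1a stood at 498 CPM on day 7 against 488 CPM on day 14, and 6 of 18 were lower and 2 higher.

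The agents in the medium act on pathways whose own genes were read on both days. Of 11 hedgehog genes, 3 were higher and 2 lower. The direct targets Gli1 (83 and 38 UMIs, 7.14 and 7.14 CPM) and Ptch1 (22.3 and 23.7 CPM) stood at nearly equal levels, with ratios of 0.9998 (0.662 to 1.48) and 1.06 (0.852 to 1.32), while Hhip (3.61 and 9.58 CPM) and Gas1 (7.396 and 24.2 CPM) were higher and Gli3 (10.8 and 1.69 CPM) lower. Of 12 Wnt genes 7 were higher and 1 lower. The higher ones included the ligand Wnt6 (10.8 and 84.1 CPM) and the secreted Wnt antagonists Sfrp1 (85.9 and 358 CPM), Sfrp4 (0.344 and 31.6 CPM) and Frzb (35.6 and 103 CPM). Of the 168 day 14 UMIs of Sfrp4, 39 lay in 1 cell. The feedback target Axin2 had a ratio of 0.746 (0.375 to 1.396), and Lef1 and Notum stayed below 20 UMIs. A total of 3 of 7 Notch genes were lower (Heyl, 21.7 and 3.94 CPM, Jag1, 35.7 and 16.2 CPM, and Rbpj, 41.6 and 20.5 CPM) and none higher, and the targets Hey1, Hey2 and Nrarp had 1, 0 and 0 UMIs on day 7 and none on day 14.

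10 of 18 PDGF and FGF genes were lower and 1 higher (median log2 ratio -0.91). The receptor Pdgfrb (36.04 and 3.01 CPM), the ligands Pdgfa (203 and 29.3 CPM) and Fgf2 (112 and 18.2 CPM) and the ERK phosphatase Dusp6 (63.04 and 11.8 CPM) were lower. In the TGF-β, activin and BMP list 10 of 23 were lower and 5 higher. Inhba, the subunit of activin A (781 and 134 CPM), Fstl1 (2361 and 578 CPM) and the BMP antagonist Grem1 (739 UMIs in 223 day 7 cells and none on day 14, at least 113-fold) were lower. Inha, the inhibin α subunit (2.84 and 45.8 CPM), and Tgfbr3, the inhibin co-receptor betaglycan (34.2 and 229 CPM), were higher. Of the 244 day 14 UMIs of Inha, 55 lay in 1 cell. A total of 5 of 8 EGF family genes were lower, with Hbegf at 212 CPM on day 7 against 6.76 CPM on day 14 and Ereg at 37.2 CPM on day 7 against 2.63 CPM on day 14, while the feedback inhibitor Errfi1 was higher (88.3 and 192 CPM). Insulin-like growth factor genes were split 2 to 2 among 10, with Igf1 lower (749.7 and 361 CPM) and Igfbp7 nearly equal (7155 and 6985 CPM).

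Surface genes of stromal progenitors were lower in 10 of 16 cases (median -1.70). Nes, the filament protein nestin, had 858 UMIs on day 7 and 1 on day 14. The hyaluronan receptor Cd44 (238 and 13.9 CPM), Ncam1 (656 and 95.03 CPM) and Thy1 (30.7 and 4.695 CPM) were lower, and the adhesion protein Vcam1 (176 and 899 CPM) stood with Ly6a among the 2 higher ones. A total of 8 of 11 chemokine and cytokine genes were lower, with Cxcl14 at 1440.1 CPM on day 7 against 349 CPM on day 14, Ccl2 at 309 CPM on day 7 against 60.3 CPM on day 14 and Il6 at 156 UMIs on day 7 and none on day 14, and Cxcl16 was higher (137 and 539 CPM). Complement genes were higher in 6 of 11 cases and lower in none, led by the terminal components C6 (1.46 and 93.3 CPM) and C7 (11.01 and 251 CPM).

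**Figure D5:**
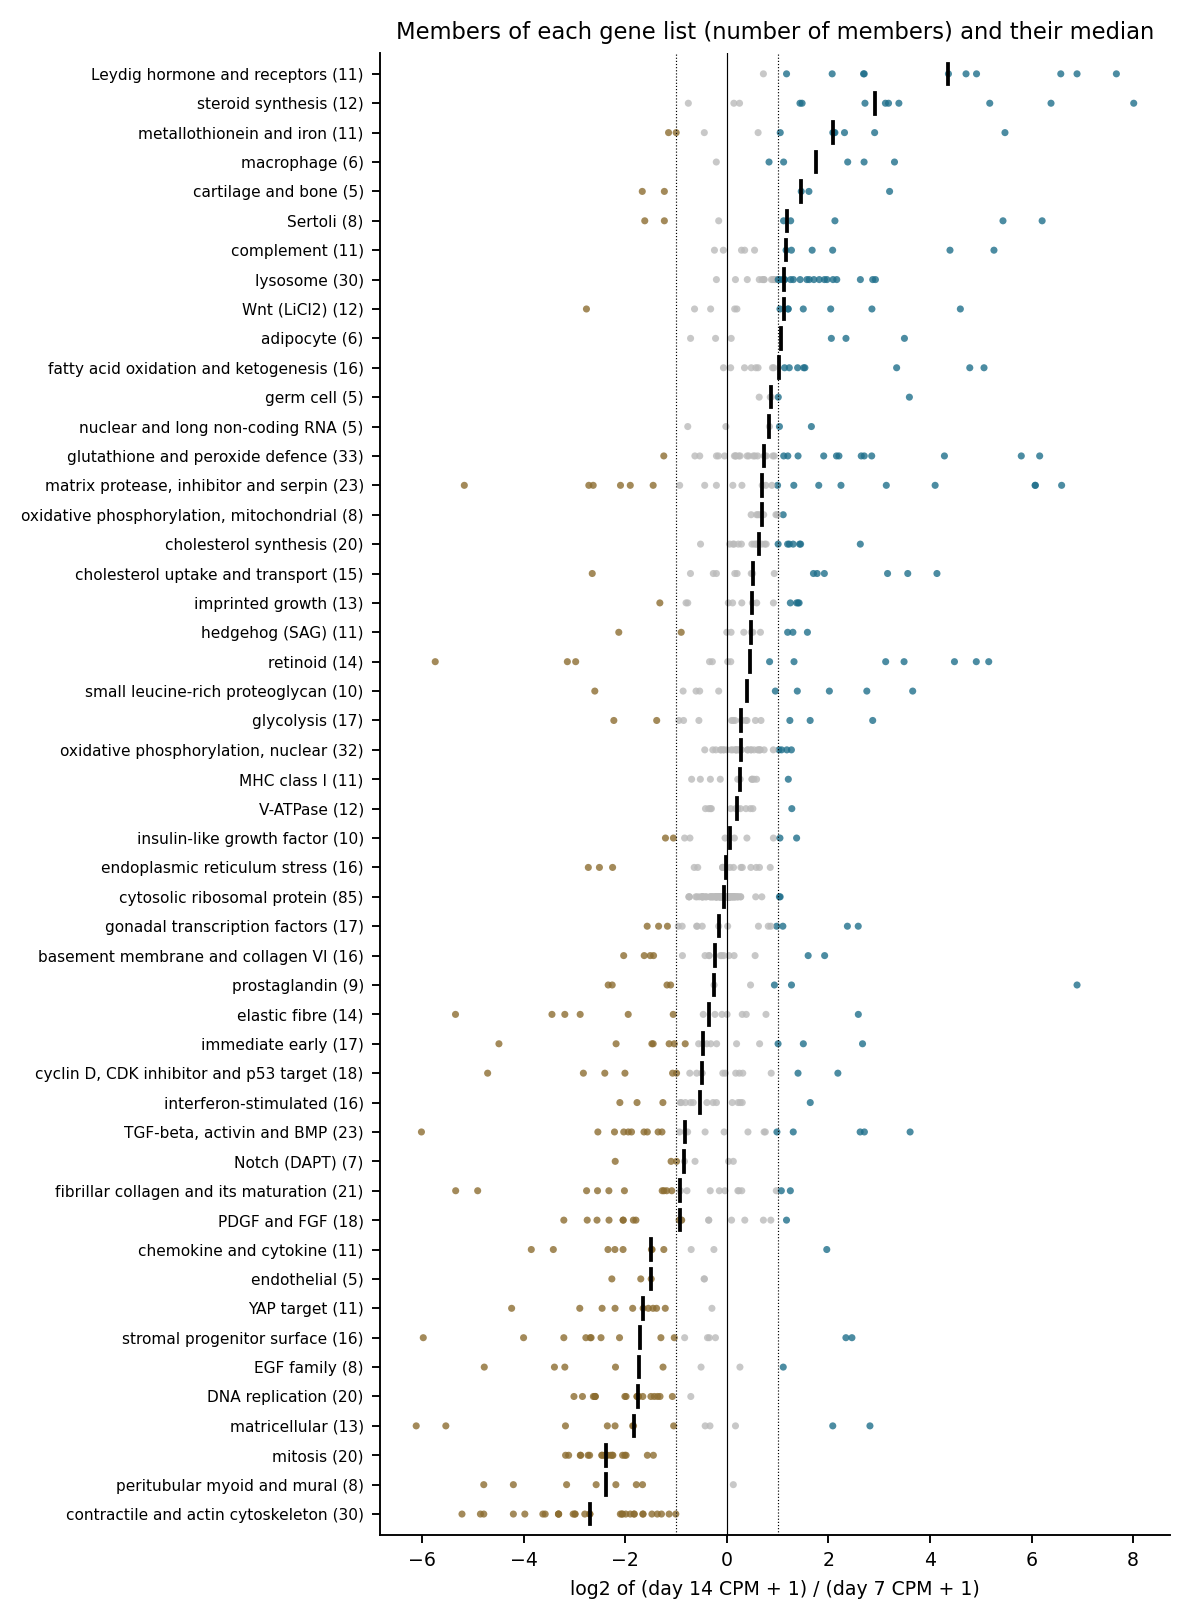
Log2 ratio of day 14 to day 7 (horizontal axis, pseudocount 1 CPM) for each gene with at least 20 UMIs of the lists with at least 5 such genes. Points are genes, coloured where the ratio without the pseudocount is at least 2-fold higher or lower, and the bar is the list's median, which is 4.36 for the Leydig list and -2.70 for the contractile list.

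Markers of other testis cell types were read for the same cells. Of 8 myoid and mural markers 7 were lower (summed level 317 CPM on day 7 against 34.7 CPM on day 14), the contractile Cnn1 and Actg2 among them. Of 8 Sertoli genes with at least 20 UMIs 5 were higher and 2 lower. Defb19 (15.6 and 1224 CPM) and Rhox8 (1.38 and 102 CPM), both known from Sertoli cells, were higher. Ctsl, which is also in the lysosomal list, was among the higher ones too. The lower ones were Rhox5, with 24 UMIs on day 7 and none on day 14, and Sox9, given below with the cartilage genes. Amh, not among the 8, had no UMI on either day. Defb19 was seen in 74.7% of day 14 cells. Macrophage markers summed to 30.3 CPM on day 7 against 245 CPM on day 14, but 1 day 14 cell held 1106 of their 1302 UMIs, and without the richest cell of each day the sums were 19.1 and 37.0 CPM. That cell carried 957 of the 1063 day 14 UMIs of Lyz2. Of 5 endothelial genes with at least 20 UMIs 3 were lower and none higher, with Cdh5 at 111 CPM on day 7 against 22.3 CPM on day 14 and Cldn5, Esam and Tie1 at no UMI on either day. Germ cell genes summed to 24.7 CPM on day 7 against 61.04 CPM on day 14, with the sperm protamine Prm1 at 8.43 CPM on day 7 against 18.03 CPM on day 14. No red blood cell gene reached 20 UMIs.

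Further genes among the 25 largest ratios were not members of the Leydig lists. The cystatin Cst8 (4.82 and 397 CPM) was 82.5-fold higher and the pancreatic-type elastase Cela3b (0.946 and 102 CPM) 108-fold. Susd3 (2.49 and 183 CPM) and Pank1, a kinase of coenzyme A synthesis (28.6 and 699.99 CPM), were 73.2-fold and 24.4-fold higher. Among the 25 smallest ratios were Mgll, a lipase that frees fatty acids (285 and 4.32 CPM), the serine protease Prss23 (658 and 18.4 CPM), the protocadherin Pcdh19 (125 and 3.19 CPM), the neurotrophin Bdnf (199 and 6.39 CPM) and the kinase Plk2 (128 and 3.94 CPM). Serpinb9b (127 and 4.695 CPM), Ddah1 (108 and 6.39 CPM), Map6 (105 and 6.76 CPM), Plac8 (206 and 14.8 CPM), Emp1 (574 and 43.4 CPM), the sphingosine-1-phosphate receptor S1pr3 (106 and 7.7004 CPM), S100a4 (417 and 25.5 CPM) and 2810417H13Rik (117 and 6.01 CPM) also belonged to that set.

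A few genes were at 0 on one of the days. Beside Cnn1 and Grem1, the growth factor Pgf (283 UMIs in 203 cells, at least 43.2-fold), Siglecg (198 UMIs in 162 cells, at least 30.2-fold) and the protease-activated receptor F2rl1 (194 UMIs in 146 cells, at least 29.6-fold) had UMIs on day 7 and none on day 14. For such a gene, with a UMI in none of the 973 cells of that day, the exact upper limit of the share was 0.378%. No limit is set on cells that express it below detection. In the other direction Ly6d (260 UMIs, at least 189-fold), Sybu (61, at least 44.4-fold), the transcription factor Zbtb16 (59, at least 42.9-fold), the kallikrein Klk1b27 (34, at least 24.7-fold) and the amino acid transporter Slc6a15 (27, at least 19.7-fold) had none on day 7. Klk1b27 belongs to a cluster of close copies, so its count is uncertain.

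Counted in UMIs gained or lost per 1000000 rather than in ratios, other genes were among the greatest. Gnas, which encodes the stimulatory G protein subunit that couples the luteinizing hormone receptor to cAMP, stood at 2704 CPM on day 7 against 10529 CPM on day 14, the secreted protease inhibitor Cst3 at 3291 CPM on day 7 against 10016 CPM on day 14, Akr1cl, an aldo-keto reductase, at 293 CPM on day 7 against 3821 CPM on day 14 and the growth arrest factor Gas6 at 423 CPM on day 7 against 3061 CPM on day 14. Malat1, a nuclear non-coding RNA, stood at 6681 CPM on day 7 against 13702 CPM on day 14 and the mitochondrial ribosomal RNA mt-Rnr2 at 5771 CPM on day 7 against 12579.8 CPM on day 14. The 10 greatest losses were, in order, in Timp1, Actb, Spp1, Lgals1, S100a6, Tpm1, Cald1, Acta2, Col1a2 and Vim. Those not given above were the galectin Lgals1 (6638 CPM on day 7 against 1336 CPM on day 14), the calcium-binding S100a6 (5777 CPM on day 7 against 831 CPM on day 14), the actin regulator Cald1 (4113 CPM on day 7 against 1101 CPM on day 14), the collagen Col1a2 (5332 CPM on day 7 against 3096 CPM on day 14) and vimentin (Vim, 3875 CPM on day 7 against 1891 CPM on day 14).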

How the data were processed

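Single-cell RNA sequencing of the culture was read from Drop-seq libraries of days 4, 7 and 14, which were sequenced in 1 batch. Reads were aligned by the authors to GRCm38, and they built tables of UMI counts with Drop-seq tools. The processing notes name STAR 2.5.2a, Picard 2.6.0 and SAMtools 1.2, whereas the methods give a later STAR release, and the annotation release is not given in the sources used here. The counts, as deposited, are raw UMI counts without normalization. The merged table holds the cells left after the authors dropped those under 500 genes or over 10% mitochondrial UMIs. Another 495 of its columns could be tied to none of these samples and were ignored. Its counts were compared with the deposited counts of each day, and 0 UMIs differed. Doublets were not called.

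UMIs were summed per day and scaled to CPM. The software was scipy 1.17.1, pandas 2.3.3, numpy 2.4.6 and matplotlib 3.10.9 under Python 3.11.15. Log2 ratios used a pseudocount of 1 CPM, and counts of genes used ratios of CPM without it. The exceptions were counts of list members under the alternatives, which used log2 ratios with the pseudocount. Shares of cells were also computed after thinning to 1500 UMIs (seed 1). The limit of a count of 0 was 3 UMIs. The scripts were tested on simulated data. The members compared and the gene lists were chosen with earlier results of these data known. Genes were named by a rule: the 25 tested genes with the largest and the 25 with the smallest log2 ratio, the 10 with the largest gain and the 10 with the largest loss in CPM, the 5 with most UMIs among genes at 0 on either day, the genes nearest the 2-fold line, and from each list the members with the largest difference or the highest level. Other list members named were chosen after their values were seen, as was the macrophage sum without its richest cell. The alternatives tried were other sets of cells, other scalings, a pseudocount of 10 CPM, other limits on levels and folds, and equal weight per cell. Positions came from the GENCODE M21 annotation on GRCm38 for 873 of 881 named genes, and promoters from RefSeq (GRCm38.p6). A total of 8 motifs were searched on both strands, as exact matches only. Motif counts are given for some pairs of motif and gene list only. Other pairs from lists with enough promoters are not reported here, so the pairs given are a selection. Because only 1760 of the 2216 tested genes (79.4%) have a promoter there, motif shares over tested genes, and over lists with less than 80%, are void and are not given. Some results under the naming rule are not reported here.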

Additional observations from a re-analysis of the deposited data

Results flagged for a closer look

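The barcodes that the study's filter had removed entered no comparison above. They numbered 229 on day 7 and 327 on day 14, with a median of 580 and 319 UMIs, and most had fewer than 500 detected genes (201 and 313). On day 14 these barcodes carried the Leydig genes too. In them Insl3 stood at 1704 CPM (kept cells 1797 CPM), Cyp17a1 at 1889 CPM (856 CPM), Cyp11a1 at 2568 CPM (2089 CPM), Hsd3b1 at 2091 CPM (1769.6 CPM) and Star at 929 CPM (1012 CPM). On day 7 no UMI of Insl3, Cyp17a1, Cyp11a1 or Hsd3b1 was found among their 119706 UMIs, which allows up to 25.1 CPM for each, and Star stood at 292 CPM (362 CPM in kept cells). Acta2 stood at 1788 CPM in the removed barcodes of day 7 (kept cells 2831 CPM) and at 64.6 CPM in those of day 14 (97.1 CPM). Whether these barcodes are damaged cells or droplets with free RNA was not tested.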

How the results depend on the processing

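No paired analysis was possible because each day is 1 library. For the same reason no library could be left out. Of the 14 alternatives for the numbers of genes at least 2-fold higher (296) and lower (347), those that moved them by over 1.5 times changed the limits themselves. Without a filter on low values the numbers were 5854 and 5358 of 21834 genes, at 1.5-fold 470 and 616, and at 4-fold 108 and 133. At a minimum of 50 CPM 566 genes were lower. Every other alternative stayed within 1.5 times. With the median of the gene ratios set to 1, which shifts log2 ratios by 0.16, the higher genes outnumbered the lower (379 and 284).

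All 69 genes named for their ratio, gain or loss that were recomputed under 10 alternatives kept their direction, and 64 stayed past 2-fold under each, the others being Malat1, mt-Rnr2, Col3a1, Col1a2 and Vim. Among 51 lists the median changed sign for 4 (gonadal transcription factors, insulin-like growth factor, endoplasmic reticulum stress and ribosomal protein genes), and for none of the 22 with a median past 2-fold. Removing cells with at least 2 mitosis UMIs left 279 higher and 315 lower genes. By log2 ratios with the pseudocount, 9 of 20 mitosis and 8 of 20 DNA replication genes were then at least 2-fold lower. The mitosis genes themselves chose the removed cells, which partly sets the smaller difference in these genes. Depth limits low genes: a gene at 0 may be present at up to 0.258 CPM on day 7 and 0.563 CPM on day 14.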

Other observations

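Several gene groups differed little. Of 85 ribosomal protein genes with at least 20 UMIs, 2 were at least 2-fold higher and none lower, with a median log2 ratio of -0.05 that became 0.11 when the median gene was set to no change. Of 16 endoplasmic reticulum stress genes 3 were lower and none higher: Asns (144 and 20.8 CPM on days 7 and 14), Chac1 (26.1 and 3.76 CPM) and Trib3 (23.4 and 4.13 CPM), all targets of the amino acid response, while the chaperone Hspa5 stood at 1778 CPM on day 7 against 1948 CPM on day 14. Of 11 MHC class I genes 1 was higher and none lower, with B2m at 3797 CPM on day 7 against 4555 CPM on day 14. Interferon-stimulated genes had 1 higher (Bst2, 225 and 704 CPM) and 3 lower of 16. Imprinted growth genes differed more, with 4 of 13 higher beside 12.4% of all genes, and a median log2 ratio of 0.50. The single lower one was Grb10 (70.4 and 27.6 CPM), and the summed level was 583 CPM on day 7 against 571 CPM on day 14.

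Among immediate-early genes 3 of 17 were higher and 7 lower. Fos (12.3 and 83.8 CPM) and Fosb (7.48 and 23.1 CPM) were higher, and the related Fosl1 had 298 UMIs on day 7 and 1 on day 14. Of 6 adipocyte genes 3 were higher, Plin1 (1.38 and 11.1 CPM), Cd36 (0.602 and 17.1 CPM) and Cebpa (1.72 and 10.3 CPM), and none was 2-fold lower, but Plin2 (80.4 and 48.6 CPM) and Lpl (26.7 and 22.7 CPM) had ratios below 1 and the summed level was 114 CPM on day 7 against 113 CPM on day 14. In the same list, the adipocyte factor Pparg stayed below 20 UMIs and Adipoq at 1 UMI or none. Of 5 cartilage and bone genes with at least 20 UMIs 3 were higher and 2 lower. Higher were Mgp, an inhibitor of calcification (841 and 2323 CPM), Acan (124 UMIs on day 14) and Alpl (77 UMIs on day 14). Lower were Sox9 (31.7 and 12.96 CPM) and Runx2 (11.7 and 3.01 CPM).

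Some day 14 genes lay in few cells. Ly6d had no UMI on day 7 and 260 on day 14, of which 137 (52.7%) were in 1 cell. Zbtb16 had no UMI on day 7 and 59 UMIs in 55 cells on day 14, and Sybu none and 61 UMIs in 50 cells. In all, 10 cells held 44.3% of the day 14 UMIs of Cyp17a1, and 27 cells held at least 50% of those of Lcn2.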
